A study of Oryza sativa with 4 samples.

Results

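miR162 and miR168 are miRNA families known, from work in Arabidopsis, to act on the small RNA machinery itself. Plant miRNAs are cut from hairpin precursors by Dicer-like 1 (DCL1) and loaded into Argonaute 1 (AGO1), which then silences mRNAs that pair with the miRNA. In Arabidopsis, miR162 guides cleavage of the DCL1 mRNA and miR168 guides cleavage of the AGO1 mRNA, so that the enzyme that makes miRNAs and the protein that uses them are each under the control of a miRNA. Each hairpin gives a duplex of the miRNA and its partner from the opposite arm, the miRNA*. The arms are called 5p and 3p after the end of the precursor on which they lie. The strand of miR168 that pairs with the AGO1 mRNA there is the 5p strand.

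The members were the entries whose deposited miRBase name was mir162 or mir168. They held 3 distinct sequences, 2 of miR162 and 1 of miR168, among 783 distinct sequences in all, of which 53 had a miRBase name. Each sequence was counted once, although 8 of the 1292 deposited hairpin entries belonged to the members. All 3 were listed in NaCl-treated shoot (TS), 2 in control shoot (CS), 2 in control root (CR) and 1 in NaCl-treated root (TR).

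The sRNA libraries came from seedlings of the salt-tolerant indica rice (Oryza sativa) cv. Pokkali, raised in hydroponic culture. On day 9 of germination the roots of the treated seedlings were given 1.5% NaCl for 9 h, and the controls (CR, CS) were seedlings of the same cultivar and age that received no NaCl. Root (CR, TR) and shoot, the aerial part (CS, TS), were taken as whole organs and sequenced separately, with 1 library per condition, so fewer cells of a type and less RNA per cell cannot be told apart. How many seedlings went into a library is not given in the sources used here.

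Abundances were given as reads and as RPM, reads per 1000000 of the reads that the authors used for miRNA prediction. These reads numbered 6887961 (CR) and 12126876 (TR) in root and 13116913 (CS) and 9765004 (TS) in shoot, so that 1 read was worth between 0.0762 and 0.145 RPM. The listed sequences made up 0.317% to 0.483% of them, were 20 to 22 nt long and had at least 2 reads. A sequence that is not listed in a library may have been removed by the prediction steps, so it was given neither a level of 0 nor a fold change. All intervals are exact 95% intervals that cover counting error only. PCR reads without molecular identifiers are not independent molecules, and a ratio between libraries compares those libraries, with no replicate check of the condition.

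The member sequences, with the seed (bases 2 to 8, counted from the 5′ end) in capitals, show how close the miR162 sequences are to each other and how miR168 differs from them. The fourth line is the most abundant miRNA* recorded for the miR168 hairpin, its 5p strand.
miR162 sequence 1: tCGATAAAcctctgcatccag
miR162 sequence 2: tCGATAAGcctctgcatccag
miR168 sequence 1 (3p): cCCGCCTTgcaccaagtgaat
miR168 miRNA* (5p): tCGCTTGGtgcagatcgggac

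The miR162 sequences shared 20 of 21 bases and differed by A8G, the last base of the seed (sequence 1 base, position from the 5′ end, sequence 2 base). They therefore carried different seeds. Both began with T, as did 43 of the 53 sequences with a miRBase name (81.1%), and so did the 5p strand of miR168. The listed 3p sequence of miR168 began with C, which was the first base of 6 of the 53. In Arabidopsis the first base is known to bear on the Argonaute that takes up a small RNA, and AGO1 prefers a 5′ U (T in these lists).

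Each member had 1 genomic match and 1 hairpin, on the IRGSP-1.0 build of the rice genome. Sequence 1 of miR162 lay at chr2:23605941-23605961 on the plus strand, in a hairpin of 171 nt at chr2:23605798-23605968. Sequence 2 of miR162 lay at chr4:24406002-24406022 on the plus strand, in a hairpin of 114 nt at chr4:24405908-24406021. The miR168 sequence lay at chr2:1553162-1553182 on the minus strand, in a hairpin of 105 nt at chr2:1553143-1553247. For 1253 of the 1292 entries, the members included, the deposited start of the mature sequence was 1 base higher than its place in the deposited hairpin. Whether these loci fall in annotated genes, exons or introns, and which mRNAs the sequences could pair with, was not analysed here. No other listed sequence lay in the hairpins of the members.

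All 3 listed sequences came from the 3p arm. In the deposited fold of the hairpin, 18 of the 21 bases of each miR162 sequence were paired, and 17 of the 21 of the miR168 sequence. The minimum free energy was -70.49 kcal/mol for the hairpin of miR162 sequence 1, -46.3 for that of sequence 2 and -71.0 for that of miR168. Per 100 nt these energies were -41.2, -40.6 and -67.6 kcal/mol, against a median of -51.7 over the 83 hairpins with a miRBase name. The miR168 hairpin was thus among the most stable for its length, with 5 of the 83 lower, whereas 6 were higher than that of miR162 sequence 1 and 4 were higher than that of sequence 2. Its G+C content of 77.1% was the highest of the 83, whose median was 50.4%. The miR162 hairpins, at 52.6% and 51.8%, stood near the median.

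miR162 sequence 1 was the only member listed in all 4 libraries. In root it had 113 reads (CR) and 140 reads (TR), and in shoot 349 reads (CS) and 180 reads (TS). The level was 16.4 RPM (13.5 to 19.7) in CR and 11.5 RPM (9.71 to 13.6) in TR. In shoot it was 26.6 RPM (23.9 to 29.6) in CS and 18.4 RPM (15.8 to 21.3) in TS. In RPM, CS was therefore the highest of the 4 libraries and TR the lowest, with TS and CR between them. The step from TS down to CR, a ratio of 1.12 (0.883 to 1.43), was within counting error, whereas the steps from CS to TS (1.44, 1.2 to 1.74) and from CR to TR (1.42, 1.10 to 1.83) were not. This order holds for RPM, and the order of CR and TR turned under 6 of 8 other scalings given below.

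Among the sequences with a miRBase name, miR162 sequence 1 ranked 8 of 31 (CR) and 9 of 26 (TR) in root, and 9 of 37 (CS) and 11 of 39 (TS) in shoot. It stood above the median of those sequences, which was 3.77, 4.95, 2.44 and 6.96 RPM in CR, TR, CS and TS, respectively. As a share of all listed reads it made up 0.340% (0.280 to 0.408) in CR and 0.350% (0.295 to 0.413) in TR. In shoot the share was 0.574% (0.516 to 0.637) in CS and 0.582% (0.50 to 0.673) in TS. On this scale the libraries of a tissue differed by less than counting error and the shoot libraries stood above the root libraries. In shoot this rested on miR168, which was listed in TS alone and made up 32.1% of the listed reads there. Without miR168 the share in TS was 0.858% (0.737 to 0.992), above that in CS.

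miR162 sequence 2 was rare. It had 4 reads in CR, 7 in CS and 6 in TS, and was not listed in TR. The levels of 0.581 RPM (0.158 to 1.49), 0.534 RPM (0.215 to 1.10) and 0.614 RPM (0.225 to 1.34) in CR, CS and TS lay within each other's intervals. Sequence 1 was 28.3 times (10.7 to 105) as abundant as sequence 2 in CR, 49.9 times (23.9 to 125) in CS and 30.0 times (13.5 to 82.8) in TS. Sequence 2 accordingly gave 3.42% (0.939 to 8.52), 1.97% (0.794 to 4.01) and 3.23% (1.19 to 6.89) of the reads of the miR162 pair in CR, CS and TS. These shares do not depend on the scaling of a library and overlapped among the 3 libraries.

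**Figure D1:**
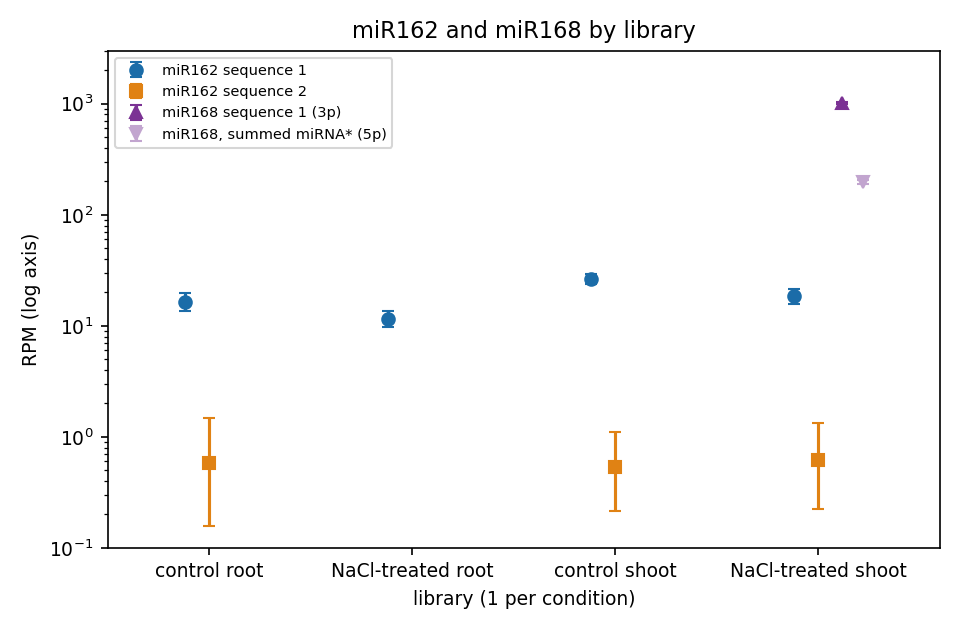
Levels of the miR162 and miR168 sequences in RPM (log axis) in the 4 libraries, 1 per condition. Points are single libraries and bars are exact 95% Poisson intervals for counting error. miR162 sequence 1 lay between 11.5 and 26.6 RPM, sequence 2 between 0.534 and 0.614 RPM where listed, and miR168 appears in TS alone, at 1017 RPM for the 3p sequence and 197 RPM for the summed 5p sequences.

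The first question of the design was what NaCl treatment did to these levels in each tissue. On the RPM scale miR162 sequence 1 was lower in the treated library of both tissues, with a ratio of TR over CR of 0.704 (0.545 to 0.910) and of TS over CS of 0.693 (0.576 to 0.832). Neither ratio reached the call used for all sequences, a change of at least 2-fold with an interval that excludes 1. The direction in both tissues, however, depended on the scale. In root the ratio was above 1 under 6 of 8 other scalings, up to 1.17 (0.909 to 1.52) on raw reads, and all 6 of these intervals included 1. These 6 count the sum of listed reads both with and without miR168, which are the same in root, where miR168 is not listed. In shoot the ratio stayed below 1 under 6 of the 8 and was 1.01 (0.842 to 1.22) on the sum of listed reads. On that sum without miR168, a scaling chosen after seeing the data, the shoot ratio was 1.49 (1.24 to 1.79), with an interval above 1.

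Sequence 2 could be compared in shoot only, and its ratio of TS over CS was 1.15 (0.320 to 4.0), an interval that allows changes of over 2-fold in either direction. The sum over both miR162 sequences was 0.680 (0.528 to 0.876) for TR over CR and 0.702 (0.585 to 0.840) for TS over CS. In TR this sum holds sequence 1 alone. The TS over CS ratio of sequence 1 was then set against its TR over CR ratio, as a conditional odds ratio of the read counts corrected for library size. On the RPM scale this was 0.986 (0.716 to 1.35), so the ratios of the tissues differed by less than counting error. On raw reads the same estimate was 0.489 (0.356 to 0.672), and on the sum of listed reads without miR168 it was 1.45 (1.06 to 1.99).

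**Figure D2:**
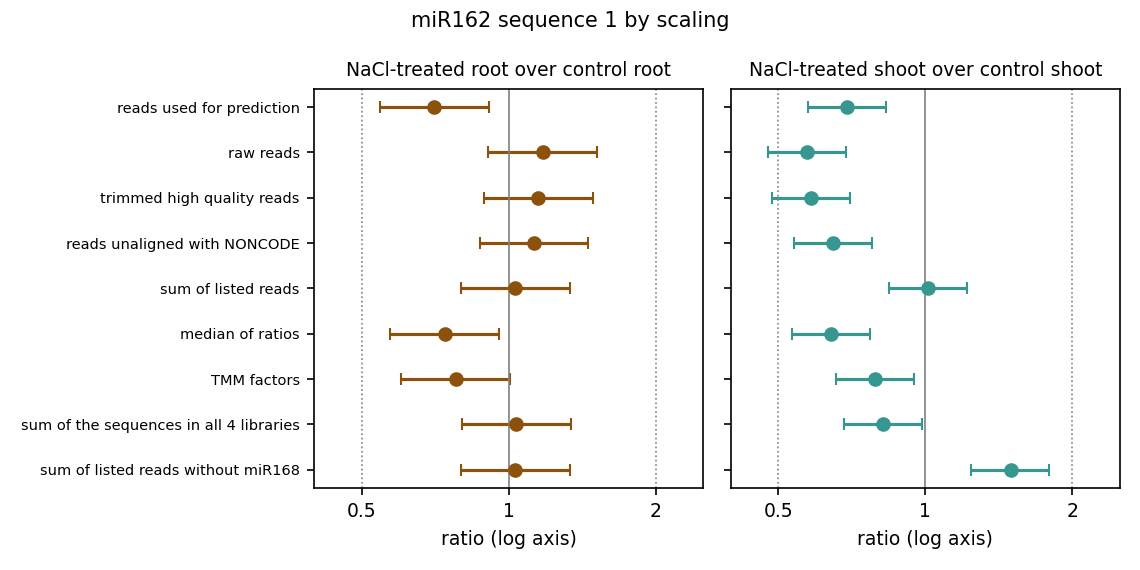
Ratio of miR162 sequence 1 in the treated over the control library (log axis) in root (left) and shoot (right), with 1 row per scaling and the reads used for prediction (RPM) at the top. Points are ratios, bars are exact 95% intervals for counting error, the solid line marks no change and dotted lines mark 2-fold. Root points lie on both sides of 1, from 0.704 to 1.17, and shoot points do too, from 0.573 to 1.49.

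Over all sequences listed in both libraries of a tissue, 11 of 46 were called in root (23.9%) and 29 of 96 in shoot (30.2%). Among sequences with a miRBase name the counts were 4 of 24 in root (16.7%) and 19 of 32 in shoot (59.4%). None of the members tested, 1 in root and 2 in shoot, was called. In root the log2 ratio of miR162 sequence 1, -0.51, lay close to the median of -0.32 over all 46 sequences, with 18 of them lower. In shoot its log2 ratio was -0.53, with 18 of the 96 sequences lower, and 7 of the 32 with a miRBase name, whose median was 0.96. The median over all 96 was 0.43, which is the value of any sequence with equal reads in CS and TS. It was set by 16 such sequences, each with 2 to 6 reads, close to the lowest number listed, so it reflects the library sizes and was not used as a reference.

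With at least 10 reads in both libraries, the median log2 ratio was -0.41 over 28 sequences in root and 0.93 over 43 in shoot. miR162 sequence 1 had 12 of the 28 and 10 of the 43 below it. Its level changed 0.932-fold relative to that median in root and 0.364-fold in shoot. Relative to the median of all sequences with a miRBase name, 24 in root and 32 in shoot and without the minimum of 10 reads, its level changed 0.910-fold in root and 0.356-fold in shoot. These distances are the same under each scaling, whereas the scalings moved the median over all sequences between -0.32 and 0.42 in root and between 0.15 and 1.53 in shoot. Sequence 2, with a log2 ratio of 0.20 in shoot, had 34 of the 96 sequences below it.

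**Figure D3:**
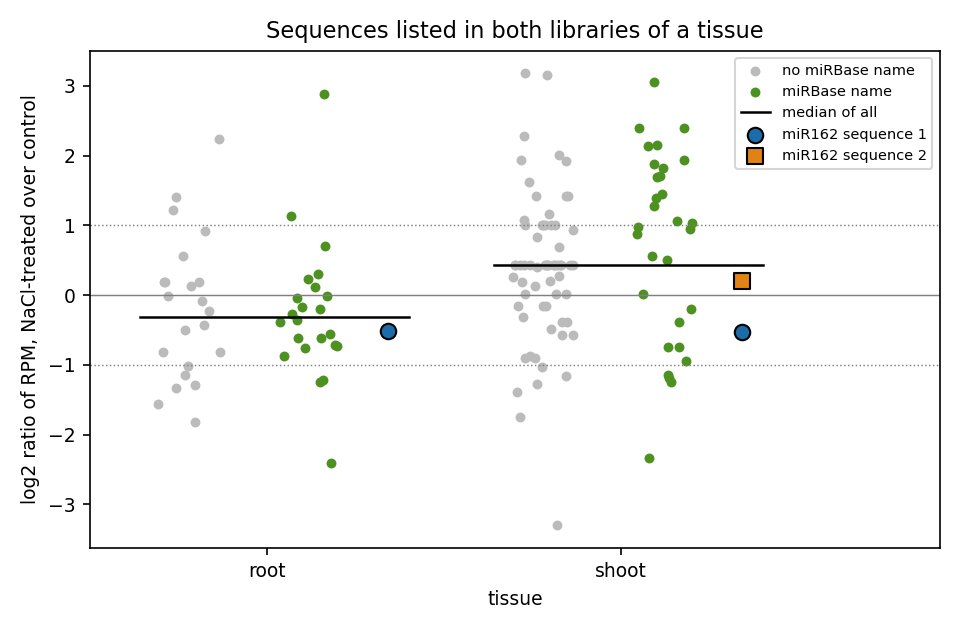
Log2 ratio of RPM, treated over control, for the sequences shared by CR and TR (46, root) and by CS and TS (96, shoot). Grey points have no miRBase name, green points have one, the black line is the median of all, and dotted lines mark 2-fold. miR162 sequence 1 lies at -0.51 in root, near the median of -0.32, and at -0.53 in shoot, where 18 of the 96 lie lower and the median of 0.43 is the value of equal reads in both libraries.

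The second question was how the levels compared between tissues. miR162 sequence 1 was higher in shoot than in root on the RPM scale, 1.62-fold (1.31 to 2.02) without NaCl and 1.60-fold (1.27 to 2.01) with it. Neither reached 2-fold. Of the other scalings, the sums of listed reads with and without miR168 are the same in CR and CS, which do not list it. With both counted, the ratio of shoot over root was above 1 under all 8 other scalings. Its size, however, moved from 1.02 to 3.49 without NaCl and from 1.03 to 2.77 with it. With TMM factors the intervals of both ratios included 1, and with NaCl so did that of the median of ratios, whereas raw reads gave a call of 2.69 (2.17 to 3.35) without NaCl.

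The pattern of miR162 sequence 1 over the 4 libraries was then set beside that of the 18 other named sequences listed in all 4, by the largest difference in log2 RPM after each sequence was centred on its own mean. The nearest was a sequence of miR156, a family known to repress SPL transcription factors that drive the change from juvenile to adult growth, with a largest difference of 0.13. That sequence had 308 reads (CR) and 326 reads (TR) in root, and 860 reads (CS) and 491 reads (TS) in shoot. Sequence 1 of miR162 accordingly had 0.367, 0.429, 0.406 and 0.367 times the reads of that sequence, respectively, and the 4 intervals, which together span 0.293 to 0.525, overlapped. That sequence was picked from the 18 for its closeness on these same values, so the overlap is no separate evidence of a link. The next nearest, another miR156 sequence and a miR159 sequence, were at 0.84 and 0.86. The measure does not depend on the scaling of the libraries, and with 4 libraries it is a description of these values. The nearest sequence is printed to show that it does not share the seed of miR162.
miR156: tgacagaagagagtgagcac

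miRNA* reads of miR162 were recorded in TS only, as 3 reads for sequence 1 against 180 of the 3p sequence, a share of 1.64% (0.339 to 4.72). They fell on a sequence of 22 nt with 2 reads and a sequence of 21 nt with 1 read. Against the 3p sequence, the 22 nt strand formed 17 base pairs and left 3′ overhangs of 1 and 2 nt. The 21 nt strand formed 16 base pairs with 3′ overhangs of 2 nt at both ends, the form that Dicer-like enzymes are known to leave.
miR162 miRNA* of 22 nt: tgggcgcagtggtttatcgatc
miR162 miRNA* of 21 nt: gggcgcagtggtttatcgatc

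Both miRNA* sequences also occur, base for base, in the hairpin of sequence 2 on chromosome 4. The hairpins were identical at 100 of 114 aligned positions (87.7%), and the longest shared stretch, 23 nt, contains both miRNA* sequences. The 3 reads therefore cannot be assigned to the chromosome 2 or the chromosome 4 locus by sequence, and the chromosome 4 entry of the same library records no miRNA*. For this reason an entry without a recorded miRNA* was not read as a count of 0. The hairpins are shown with the listed 3p sequence in capitals. The miRNA* sequences lie near the 5′ end of each.
miR162 hairpin, chromosome 2: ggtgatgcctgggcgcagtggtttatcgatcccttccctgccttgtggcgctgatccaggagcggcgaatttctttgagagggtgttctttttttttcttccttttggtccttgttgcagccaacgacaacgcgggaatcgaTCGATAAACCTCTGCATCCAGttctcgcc
miR162 hairpin, chromosome 4: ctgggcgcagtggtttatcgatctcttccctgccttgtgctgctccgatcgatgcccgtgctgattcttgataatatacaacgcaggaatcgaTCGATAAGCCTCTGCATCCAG

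miR168 was listed in TS alone, and there its 3p sequence was the most abundant of all 311 sequences. It had 9929 reads, or 1017 RPM (997 to 1037), and made up 32.1% (31.6 to 32.6) of the listed reads. That was 55.2 times (47.6 to 64.3) the reads of miR162 sequence 1 in the same library. Since CR, TR and CS list no entry with this name, no NaCl or tissue ratio could be formed for miR168.

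The 5p arm of the same hairpin was also abundant. It was recorded as miRNA*, with 1928 reads of 8 sequences, 197 RPM (189 to 206). It thus made up 16.3% (15.6 to 16.9) of the 11857 reads recorded for the hairpin, and the 3p sequence had 5.15 times (4.90 to 5.41) as many reads. The 3p arm was recorded as 1 sequence and the 5p arm as 8, so any further 3p forms are missing from this share. Set against the most abundant 5p sequence alone, the 3p sequence had 7.42 times (7.00 to 7.86) as many reads. The arm that is known in Arabidopsis to pair with the AGO1 mRNA was therefore the less abundant of the arms in this library.

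A sequence of 21 nt led the 5p reads, with 1339 reads (69.5%, 67.3 to 71.5), or 137 RPM. On its own it had more reads than all but 4 of the 311 sequences listed in TS, and 7.44 times (6.36 to 8.74) those of miR162 sequence 1. A form of 22 nt, longer by 1 base at the 3′ end, had 464 reads (24.1%, 22.2 to 26.0), and a form of 20 nt, shorter by 1 base, had 115 reads (5.96%, 4.95 to 7.12). The remaining 5 sequences had 1 to 3 reads each. The 3 main forms show that they share the 5′ end and the seed and part at the 3′ end.
miR168 5p, 21 nt: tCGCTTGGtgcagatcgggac
miR168 5p, 22 nt: tCGCTTGGtgcagatcgggacc
miR168 5p, 20 nt: tCGCTTGGtgcagatcggga

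Of the 1928 5p reads, 1918 (99.5%, 99.0 to 99.8) began at position 19 of the hairpin, and 8 began 1 base later. The 3′ ends were spread more widely, with 1342 reads (69.6%) ending at position 39, 466 (24.2%) at position 40 and 115 (5.96%) at position 38. The 5′ end, which sets the seed, was thus the more uniform end. Forms outside 20 to 22 nt would not appear in these lists, and the 3p arm was given as 1 sequence, so its ends could not be examined in the same way.

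In the deposited fold the 21 nt 5p strand and the 3p sequence formed 17 base pairs, with 4 unpaired bases on each strand and 3′ overhangs of 2 nt at both ends. The hairpin is shown with both strands of this duplex in capitals, the 5p strand first.
miR168 hairpin: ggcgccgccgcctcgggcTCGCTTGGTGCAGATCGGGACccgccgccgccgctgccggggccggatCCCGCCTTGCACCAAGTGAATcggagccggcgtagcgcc

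**Figure D4:**
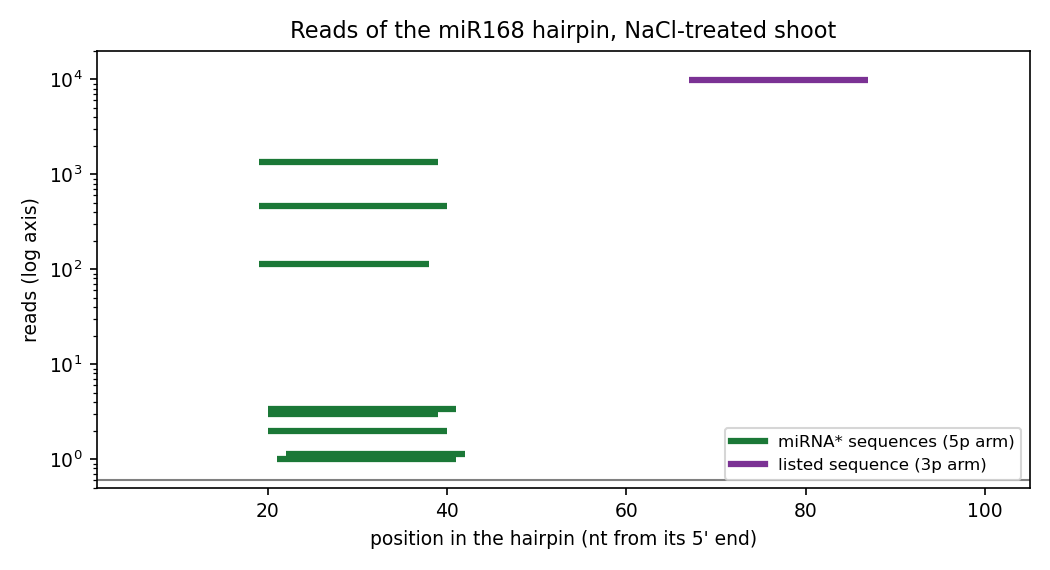
Reads (log axis) of each sequence of the miR168 hairpin in TS, drawn from its first to its last position in the hairpin of 105 nt. Green bars are the 8 miRNA* sequences of the 5p arm and the purple bar is the listed 3p sequence; bars with the same read count are shifted slightly upward to be seen, and the grey line at the bottom is the hairpin. The 3 most abundant 5p sequences, with 1339, 464 and 115 reads, all begin at position 19 and end at positions 39, 40 and 38.

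Among hairpins with a miRBase name, recorded miRNA* reads were found for 26 of 57 entries (CR) and 30 of 54 (TR) in root, and for 32 of 65 (CS) and 40 of 69 (TS) in shoot. Where they had any, the median miRNA* share was 2.99%, 2.79%, 2.00% and 2.40% in CR, TR, CS and TS. miR168 carried 1928 of the 2499 such reads in TS (77.2%), and the next highest entry had 74. These reads were summed over entries, so a miRNA* sequence recorded for more than 1 entry is counted for each. Over the entries of TS with 1 genomic match, miR168 had 1928 of 1964 miRNA* reads. Its share of 16.3% was exceeded by 4 named entries in TS. Over the entries of TS whose sequence has 1 genomic match, 12 had miRNA* reads, and the 2 with higher shares than miR168 had 2 and 11 reads of their listed sequence. The miR1425 hairpin, next to it in reads among these with 6653, had 9 miRNA* reads, a share of 0.135%.

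**Figure D5:**
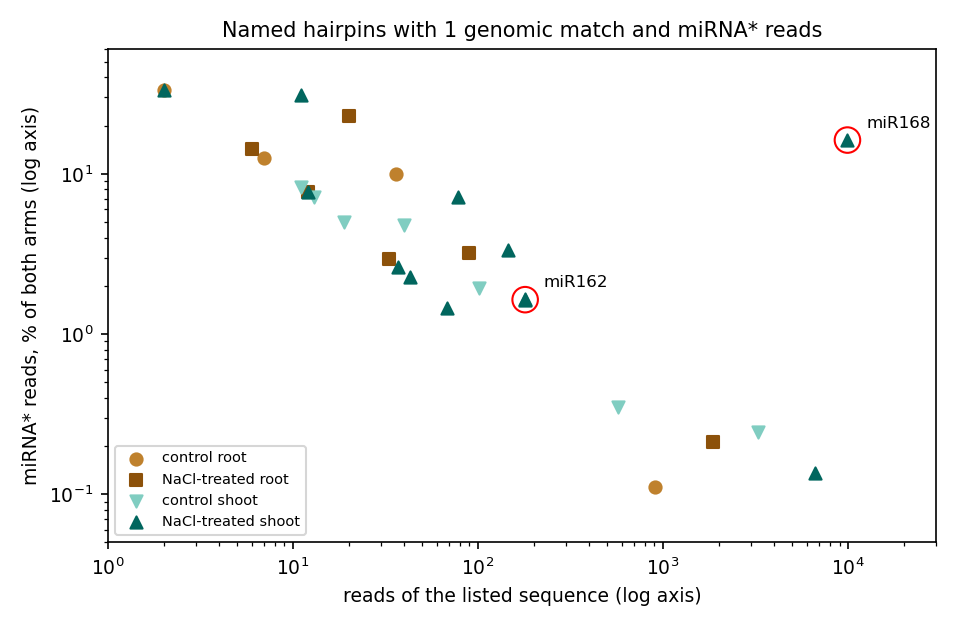
Share of miRNA* reads in the reads of both arms (percent, log axis) against the reads of the listed sequence (log axis), for named hairpins with 1 genomic match and recorded miRNA* reads in the 4 libraries. Each point is 1 hairpin in 1 library and red circles mark the members. miR168 lies at 9929 reads and 16.3%, and miR162 sequence 1 at 180 reads and 1.64%.

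Other families tied to small RNA pathways were looked up as a list of 5, of which 4 had an entry. miR390, which starts the making of trans-acting siRNAs from TAS3 transcripts, had 36 reads (CR), 40 reads (CS) and 78 reads (TS), and its ratio of TS over CS was 2.62 (1.77 to 3.94), a call. miR393, known in Arabidopsis to act on auxin receptor mRNAs, had 69 reads (CS) and 101 reads (TS), and its ratio of TS over CS, 1.97 (1.43 to 2.71), stopped short of 2-fold. For comparison, 19 of the 32 sequences with a miRBase name were called in shoot (59.4%), 15 of them higher. The median log2 ratio of those 32 was 0.96, against 1.39 for miR390 and 0.98 for miR393. miR2118 and miR2275, which in grasses start phased siRNAs in reproductive tissue, had at most 3 reads in any library. None of these 4 families was listed in TR, which listed 26 of the 53 sequences with a miRBase name. miR2275 and miR393 were not listed in CR either. miR403, known in Arabidopsis to act on AGO2, had no entry.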

How the data were processed

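Small RNA libraries (TruSeq, HiSeq2000) of control and NaCl-treated root and shoot of rice cv. Pokkali were sequenced, 1 per condition. Per the labels and methods, the authors processed reads with cutadapt, NGS QC Toolkit and the UEA sRNA Workbench (versions not given in the sources used here), removed other non-coding RNAs, matched miRBase and predicted hairpins on the rice genome. The deposited lists hold raw read counts and RPM per sequence, the log2 of the RPM, hairpin free energy scores, a G+C percent and a hairpin p-value, all made by the authors. RPM was recomputed from the counts and the reads used. Empty lines (3 in CR, 3 in TR, 5 in CS, 4 in TS) were left out.

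All miR162 and miR168 sequences were named, with their miRNA*, the 3 sequences of nearest pattern and the list of 5 families. Members and lists were chosen with earlier results of these data known. Ratios of RPM have exact conditional (Clopper-Pearson) 95% intervals, levels exact Poisson and shares exact binomial intervals. A call needs a ratio of at least 2 or at most 0.5 and an interval that excludes 1. No p-value was computed. The rule was tested only on simulated Poisson counts, which hold counting error and no variation between replicate libraries. Alternatives were 8 other scalings: raw, trimmed and NONCODE-unaligned reads (totals of the study), the sum of listed reads, median of ratios and TMM over the 29 sequences listed in all 4 libraries, and, both chosen after seeing the data, the sum of those 29 and the sum of listed reads without miR168. Others were at least 10 reads, a 1.5-fold rule and other counting units. Python 3.11.15, scipy 1.17.1, R 4.3.3 and edgeR 4.0.16 (TMM only) were used.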

Additional observations from a re-analysis of the deposited data

How the results depend on the processing

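The ratio of miR162 sequence 1 in root, 0.704 on RPM, turned to 1.17 on raw reads, 1.15 on trimmed reads, 1.12 on NONCODE-unaligned reads, 1.03 on the sum of listed reads, with or without miR168, and 1.03 on the sum of the 29 sequences listed in all 4 libraries; the sum without miR168 and the sum of 29 were chosen after seeing the data; it kept its direction with the median of ratios (0.739) and TMM (0.778). The sum over the miR162 pair turned in root to 1.13, 1.11 and 1.09 on raw, trimmed and NONCODE-unaligned reads. In shoot, the sum of listed reads gave 1.01 for sequence 1 and 1.03 for the pair, and that sum without miR168 gave 1.49 and 1.51. For sequence 2 in shoot, raw and trimmed reads gave 0.952 and 0.971. No member ratio of NaCl-treated over control became a call under any of the 8 scalings. The shoot over root ratio of sequence 1 without NaCl became a call on raw reads (2.69), trimmed reads (2.5), NONCODE-unaligned reads (2.48) and the sum of the 29 sequences (3.49), and with NaCl on the last of these (2.77) and on the sum without miR168 (2.45). In root, 7 of the 46 sequences were called on the sum of listed reads and 18 with a 1.5-fold rule, against 11 (23.9%). Among the 24 root sequences with a miRBase name, 4 were called (16.7%). In shoot, 19 of the 32 with a name were called (59.4%), against 29 of all 96 (30.2%), so the called share was higher among named sequences. With at least 10 reads in both libraries, 23 of 43 sequences were called in shoot and 8 of 28 in root. Named and unnamed sequences were not compared at equal read numbers. The 5p share of miR168 was 11.9% with its most abundant sequence alone and 11.9% with the 21 nt sequences alone. Causes other than the change of denominator or of counting unit were not tested. No paired analysis was possible because the only replicate number is 1 in every condition; a fit with tissue as the block would take root and shoot as replicates of each other and was not run. With 4 to 7 reads, sequence 2 could show only changes of several-fold, and the depth says nothing of sequences that are not listed.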
